A study of Mus musculus with 86 samples.

Results

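The liver of Dll1 heterozygous mice on the C3H background was compared with that of C3H wild-type mice. The comparison rests on 10 of the 86 arrays of the series, namely all arrays of C3H liver. Each of 5 male heterozygotes, aged 15 weeks per the labels, was hybridised on 2 arrays of opposite dye orientation against 1 pool of liver RNA from wild-type C3H males of the same age. The heterozygotes carry the targeted allele Dll1tm1Gos, a lacZ insertion that disrupts 1 copy of Dll1 in every cell, and the line had been outcrossed from a 129 background to C3HeB/FeJ. No treatment is named in the labels for either genotype. The labels list 5 mice in the wild-type pool, while the protocol text speaks of 6 control animals. The same 5 heterozygotes gave the C3H thymus and C3H brain arrays (10 each) used for comparison, and 4 heterozygous males of 129SvJ/Iso, aged 16 weeks, gave 12 liver arrays with the same allele, set against wild-type RNA of their own strain. The series also holds spleen arrays of both strains, 129SvJ/Iso brain and 129SvJ/Iso thymus, which were not used here.

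Dll1 is a ligand that sits on the surface of a cell and activates Notch receptors on its neighbours. The receptor is then cut by gamma-secretase, and its intracellular domain joins Rbpj and Maml coactivators to switch on Hes and Hey repressors. In liver, Notch signaling is best known for steering bipotent progenitors to bile duct cells, where Jag1 and Notch2 are the leading pair. Hepatocytes, which make up most of the organ, produce the plasma proteins, the bile acids, much of the body's cholesterol and the cytochromes P450, and they carry the large endoplasmic reticulum (ER) that this secretion needs.

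Every value below is a log2 ratio of the heterozygous mouse over the wild-type pool, so a value below 0 is a lower level in the heterozygote. The labels do not settle this direction, which is likely rather than certain, since it was read from genes that the study gives as lower. Values of a mouse are means of its arrays in both dye orientations, and group values are means ± SD over 5 mice unless another n is given. The 95% intervals are those of limma. In RNA of whole liver, fewer cells of a type and less RNA per cell cannot be told apart. Ratios carry no level of a transcript, so the presence of liver-defining RNAs could not be checked by their abundance.

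The arrays were close to centred, with medians between −0.015 and 0.067. The share of values not used was 1.14% to 8.33% per array, and was highest on the array of mouse 1 with heterozygous RNA in Cy3, where the SD over spots was 0.989 against 0.429 to 0.718 on the other 9. The mice did not carry 1 common profile. Over 16721 probes measured on all arrays, the Pearson correlation of a mouse with the mean of the other 4 was 0.26, −0.02, 0.42, 0.39 and 0.22 in mice 1 to 5. Mouse 2 thus stood apart, and its 2 arrays also had a Spearman correlation of −0.10 with each other. In mice 1, 3, 4 and 5 that correlation was 0.06, 0.30, 0.26 and 0.12. Its median was 0.12 for arrays of the same mouse in opposite dyes and 0.16 for arrays of different mice in the same dye. Low correlations between mice thus came with low agreement of the repeat arrays of a mouse. On both arrays of mouse 2 the sign of the constant extreme value followed the dye (16.052 in Cy5, −16.244 in Cy3). By that sign all arrays were read as turned for the dye, and the correlation of these 2 arrays adds no further check of it. The effect of leaving mouse 2 out is given below for each list median that it moves by over 1.5 times. Where a gene has several probes, the one described is in general that with the smaller p or the larger ratio, and a probe of opposite sign is given beside it. Probes numbered above 20237, the last block of probe numbers, stood low as a whole, and genes measured by them are named as such.

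No single probe passed the test. Of 20335 probes tested with limma against 0, 0 (0.0%) had an adjusted p under 0.05 (lowest value 0.36). Without adjustment, 1558 probes (7.66%) were lower and 1243 (6.11%) higher in heterozygotes at p under 0.05, which is called the unadjusted level below. With each array's median subtracted that split was 1828 lower and 838 higher. With the probes of a gene averaged, 819 of 8888 genes (9.21%) were lower and 418 (4.7%) higher at that level. Of the probes present on all 10 arrays, 170 of 16721 (1.02%) lay below 0 on each of them and 153 (0.915%) above. None of the genes named below passes the adjusted threshold, so their ratios are described by size, interval and spread. Counts of a list at the unadjusted level are given per gene, against 9.21% lower and 4.7% higher over all genes.

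Dll1 itself, on chromosome 17, was represented by a pair of probes that gave opposite signs. One had −1.37, −0.30, −0.36 and −1.22 in mice 1, 2, 3 and 5, with a mean of −0.81 ± 0.56 (n = 4) and a 95% interval of −1.37 to −0.26, and lay below 0 on 9 of 9 arrays. This probe belongs to the last block of probe numbers, which stood low as a whole. The other had 0.52, 0.46, 0.13, −0.57 and 0.24 in mice 1 to 5 (0.15 ± 0.43, interval −0.25 to 0.56). Ratios of that second probe were −0.46 ± 0.20 in thymus and −0.18 ± 0.10 in brain of the same mice. Those of the first probe were −0.10 ± 0.25 in thymus and −0.02 ± 0.37 in brain, so neither probe was low in all 3 organs. The place of either probe relative to the insertion was not available from the labels, so they check neither genotype nor labels.

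Of the other Notch ligands and receptors, Jag2 had the largest mean, 0.46 ± 0.33 (interval 0.14 to 0.78), with 0.90, −0.02, 0.55, 0.42 and 0.45 in mice 1 to 5. It was above 0 on 9 of 10 arrays, yet a second Jag2 probe averaged −0.02 ± 0.31 (n = 4). The ligands Jag1 and Dll3 had 0.13 ± 0.53 and −0.04 ± 0.41, and Dll4 had no probe that was tested. Among receptors, Notch1 had 0.28 ± 0.57 (n = 3), Notch2 −0.20 ± 0.42, Notch3 −0.03 ± 0.20 and Notch4 0.11 ± 0.31. The intervals of these receptors all included 0, and their mice lay on both sides of it. The 8 ligands and receptors had a median of 0.04, and 1 was lower and 0 were higher at the unadjusted level.

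In receiving cells, nicastrin (Ncstn), a subunit of gamma-secretase, had −0.45 ± 0.38 by a probe of the last block of probe numbers, its partners Psen2 and Aph1a −0.20 ± 0.21 and −0.17 ± 0.14, and the DNA-binding partner Rbpj −0.24 ± 0.42. The repressor Hes1, the classical target, lay at 0.20 ± 0.18 and above 0 on 9 of 10 arrays. Its relatives of the Hey family lay on the other side. Hey2 had −0.60, 0.04, −0.85, −1.34 and −0.52 in mice 1 to 5 (−0.65 ± 0.50, interval −1.11 to −0.20), and all 5 probes of Hey1 and Hey2 averaged below 0, from −0.65 to −0.33. Hes1 and the Hey genes therefore did not share a direction. Of those 5 Hey probes, 3 belong to the last block of probe numbers, and the 2 outside it averaged −0.65 ± 0.50 (Hey2) and −0.33 ± 0.47 (Hey1). Ligand-side ubiquitin ligases had means of 0.32 ± 0.29 (Mib2, interval 0.03 to 0.61), 0.25 ± 0.15 (Neurl1a) and −0.03 ± 0.28 (Mib1). Over the 28 genes of processing and response the median was −0.10 (−0.15 without mouse 2), with 3 lower and 2 higher at the unadjusted level, shares of the same order as over all genes.

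A list of 13 genes was taken from the study's account of this liver, and 8 of them matched a tested probe. All 8 averaged below 0, with a median of −0.83. The study chose these genes on the same mice, and the direction of the ratios was itself taken from genes it gives as lower, so their sign is no independent evidence. Among them was Hmgcs1, the enzyme that makes HMG-CoA for cholesterol synthesis. It had −0.92, −0.34, −0.88, −1.16 and −0.72 in mice 1 to 5 (−0.80 ± 0.30, interval −1.10 to −0.50), and its second probe −0.94, −0.18, −1.13, −1.48 and −0.51 (−0.85 ± 0.51). Both probes were below 0 on all 10 arrays, and mouse 2 was the highest of the 5 in each. By contrast Cth, which makes cysteine from cystathionine, had −0.98, 0.24, −1.62, −1.29 and −0.81, Cul2, a scaffold of ubiquitin ligases, had −0.92, 0.02, −1.66, −1.18 and −0.51, and the cell cycle kinase Cdk2 had −1.54, 0.08, −1.89, −1.12 and −0.48. In these 3 genes mouse 2 lay above 0 and the other 4 mice below it. The ubiquitin ligase Siah1a had −0.98, −0.48, −1.17, −1.10 and −0.63 and was below 0 in every mouse. The tested probes of Cul2 and Siah1a and the lower of 2 Cdk2 probes come from the last block of probe numbers, and the other Cdk2 probe averaged −0.36 ± 0.44.

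Secreted products of hepatocytes lay below 0 as a broad group. Of 19 coagulation genes, 13 were lower and 0 higher at the unadjusted level, with a median of −0.40. Of 24 acute phase genes all averaged below 0 and 15 were lower at that level (median −0.36), and complement (16 genes, 8 lower, median −0.27), plasma serpins (13 genes, 7 lower, median −0.27) and apolipoproteins (14 genes, 7 lower, median −0.26) followed. In each of these lists the share lower exceeded 9.21%. The medians of the mice were uneven. For coagulation they were −0.49, −0.05, −0.46, −0.45 and −0.15 in mice 1 to 5, and for acute phase proteins −0.47, −0.04, −0.61, −0.62 and −0.13. Mice 1, 3 and 4 were thus low, mouse 5 lay between, and mouse 2 lay near 0 in both lists.

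**Figure D1:**
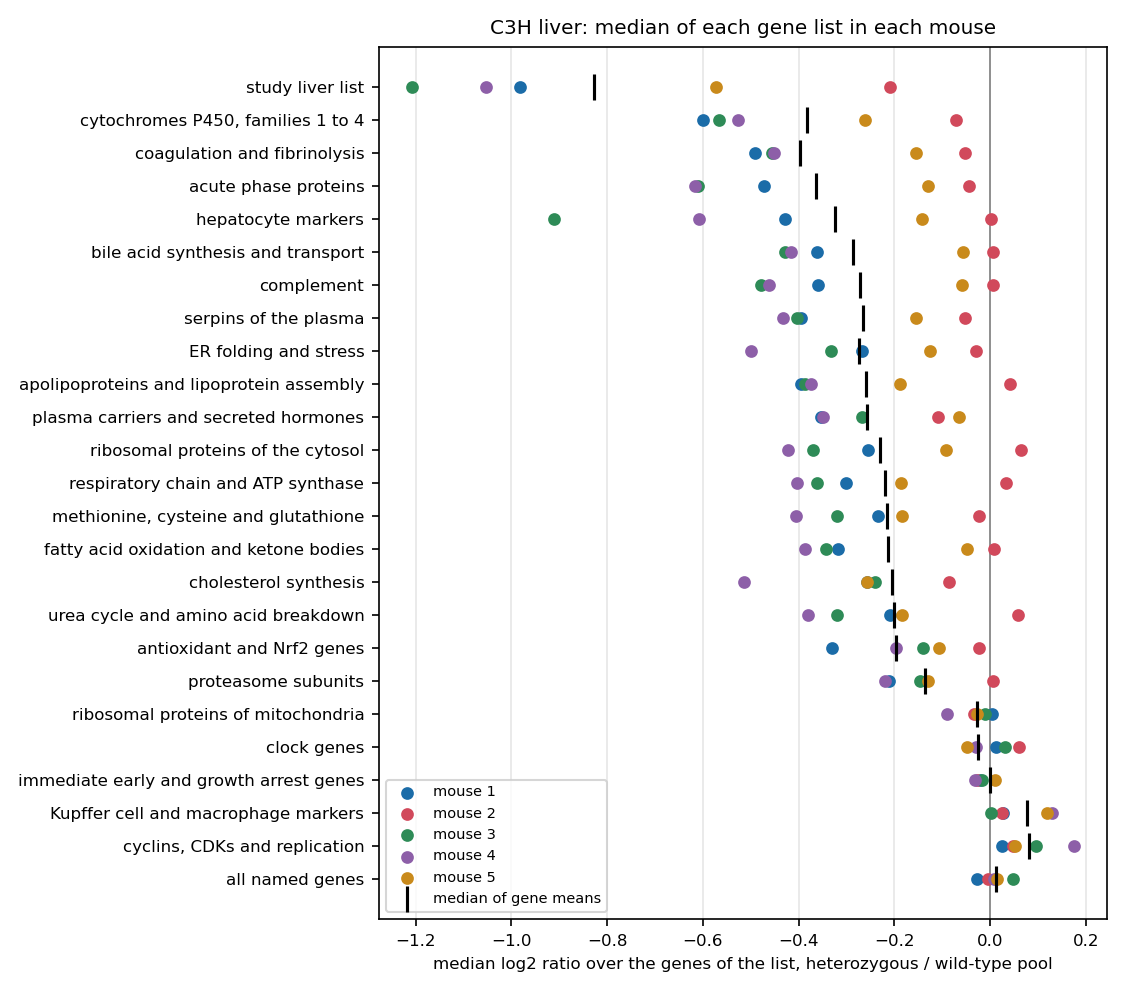
Median log2 ratio (heterozygous over wild-type pool) of each gene list in C3H liver, with 1 coloured point for each of 5 mice and a black tick for the median of the gene means. In lists of hepatocyte products such as cytochromes P450 and acute phase proteins, mice 1, 3 and 4 lie well below 0 and mouse 2 lies near 0. Mitochondrial ribosomal proteins and clock genes stay near 0 in all mice, and cyclins lie above 0, up to 0.175 in mouse 4.

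The low clotting genes included procoagulant and anticoagulant factors. High-molecular-weight kininogen (Kng1), a cofactor of contact activation, had −0.41, −0.21, −0.35, −0.56 and −0.36 in mice 1 to 5 (−0.38 ± 0.13, interval −0.57 to −0.19). Prothrombin (F2) averaged −0.54 ± 0.49, the cofactor F5 −0.45 ± 0.34, and the 3 chains of fibrinogen −0.64 ± 0.55 (Fga), −0.46 ± 0.41 (Fgb) and −0.53 ± 0.51 (Fgg). The anticoagulant proteins C (Proc) and S (Pros1) had −0.51 ± 0.40 and −0.40 ± 0.30, and antithrombin (Serpinc1) −0.44 ± 0.38. Genes that promote clotting and genes that restrain it therefore lay on the same side of 0. Von Willebrand factor (Vwf), which endothelial cells make, was the member farthest above 0, at 0.37 ± 0.31 (n = 4). Tissue factor (F3), at −2.21 ± 1.17 (n = 3), came from the last block of probe numbers.

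Mbl2, a mannose-binding lectin that starts a pathway of complement, had −0.77, −1.40, −0.78, −0.80 and −0.36 in mice 1 to 5 (−0.82 ± 0.37, interval −1.18 to −0.47) and was below 0 on all 10 arrays. Its lowest value, in mouse 2, rests on 1 array, with −2.75 in Cy3 and −0.05 in Cy5, where mouse 2 was the highest of the 5. The complement inhibitor Cfi averaged −0.56 ± 0.39, and the cell-adhesion and complement-regulating plasma protein vitronectin (Vtn) −0.41 ± 0.24. Saa4, a serum amyloid of lipoproteins that hepatocytes make constitutively, had −0.59, −0.40, −0.62, −0.72 and −0.20 (−0.51 ± 0.21), while a second Saa4 probe gave −0.14 ± 0.17. Haptoglobin (Hp), which binds free hemoglobin, had 0.24, −0.65, −0.72, −2.39 and −0.75 and so had mouse 1 above 0 and mouse 4 far below the rest. Serum amyloid, kininogen, metallothionein and Serpina1 genes have near-identical relatives that a cDNA probe may not separate, and their single values are uncertain.

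Apolipoprotein F (Apof), an inhibitor of lipid transfer in humans, had −0.83, −0.16, −0.81, −0.77 and −0.53 in mice 1 to 5 (−0.62 ± 0.28, interval −0.91 to −0.33) and was below 0 on 10 of 10 arrays. Apoa2 and Apoh averaged −0.52 ± 0.40 and −0.56 ± 0.40. Of the carriers, selenoprotein P (Selenop), which brings selenium to other organs, had −0.62 ± 0.40, and Igfbp4, a binding protein of insulin-like growth factors, had −0.53 ± 0.31, each below 0 on all 10 arrays. Albumin and transthyretin, the most abundant plasma carriers, were less even. Albumin (Alb) had 0.02, 0.11, −0.91, −0.48 and −0.04 in mice 1 to 5 (−0.26 ± 0.43), so that only mice 3 and 4 were clearly below 0, and Ttr averaged −0.32 ± 0.38.

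Cytochromes P450 of families 1 to 4, which oxidise drugs, steroids and fatty acids, had a median of −0.38, and 11 of 19 were lower and 0 higher at the unadjusted level. Cyp2f2 had −1.06, −0.31, −1.24, −1.0 and −0.53 in mice 1 to 5 (−0.83 ± 0.39, interval −1.20 to −0.46). Cyp2c70, which hydroxylates bile acids in mice, had −1.29, −0.16, −1.06, −0.92 and −0.61 (−0.81 ± 0.44). Cyp3a13 had −1.03, −0.29, −1.15, −0.72 and −0.54 (−0.75 ± 0.35). These 3 genes were below 0 on all 10 arrays with mouse 2 the highest of the mice, and Cyp3a11, the main drug-metabolising member of its family (−0.66 ± 0.41), and Cyp2a12 (−0.66 ± 0.38) also lay below 0 on every array. The list spanned −0.83 to 0.59. Probes of the Cyp2c, Cyp2d and Cyp3a clusters may bind relatives.

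**Figure D2:**
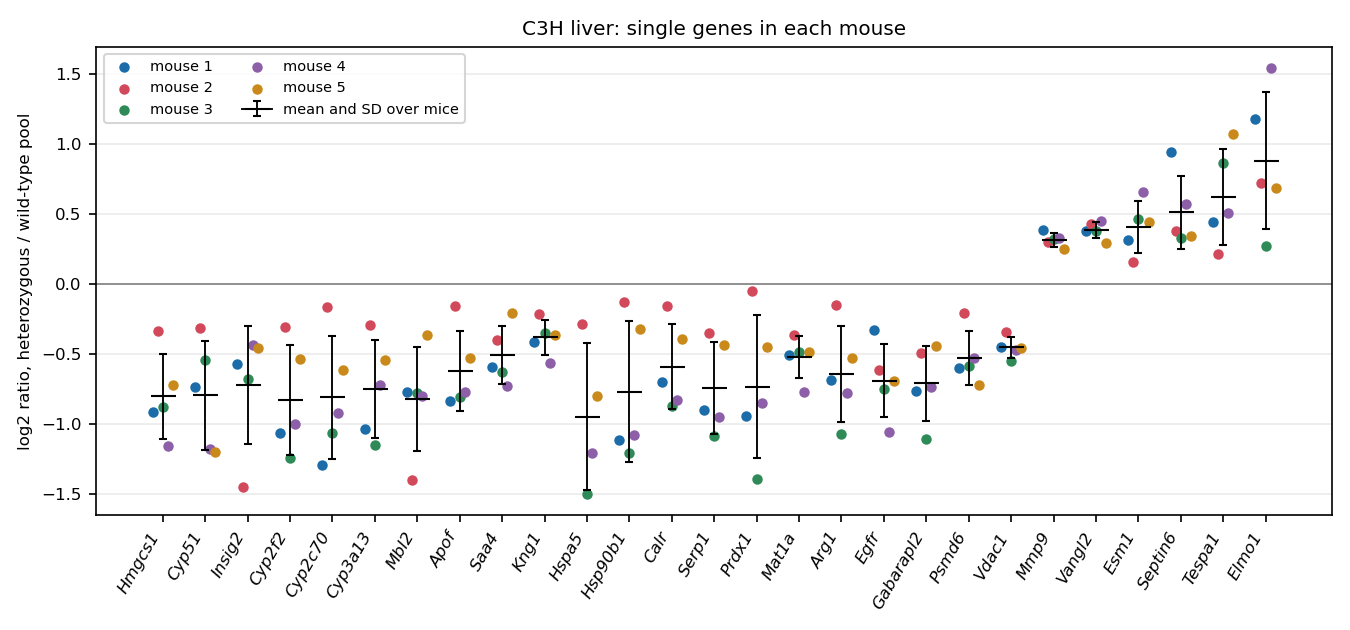
Log2 ratio (heterozygous over wild-type pool) of 27 genes in C3H liver, with a coloured point for each mouse and a black bar for the mean and SD over mice. The genes on the left lie below 0 with mouse 2 mostly the highest, and the 6 genes on the right lie above 0 with a narrow spread for Mmp9 and Vangl2 and a wide one for Elmo1.

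In cholesterol synthesis 9 of 13 genes averaged below 0 and 5 were lower at the unadjusted level, and the median was −0.21 with mouse 2 and −0.32 without it. Besides Hmgcs1, the lanosterol demethylase Cyp51 had −0.74, −0.31, −0.54, −1.18 and −1.20 in mice 1 to 5 (−0.79 ± 0.39), the methyl oxidase Msmo1 −0.45, −0.27, −0.80, −0.89 and −0.41 (−0.56 ± 0.27) and farnesyl diphosphate synthase (Fdps) −0.64, −0.09, −0.55, −0.82 and −0.61 (−0.54 ± 0.28). Squalene epoxidase (Sqle) averaged −0.53 ± 0.43. A second Cyp51 probe gave −0.41 ± 0.97. Dhcr7, at the end of the pathway, averaged 0.28 ± 0.40 (n = 4), on the other side of 0, while Sc5d, the desaturase just before it, averaged −0.21. Insig2, which holds the sterol sensor in the ER, had −0.57, −1.45, −0.68, −0.43 and −0.45 (−0.72 ± 0.42). Its low value in mouse 2 rests on 1 array, with −2.62 in Cy3 and −0.28 in Cy5, where mouse 2 was the highest of the 5.

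In bile acid synthesis, the oxysterol hydroxylase Cyp7b1 had −1.11, 0.01, −1.56, −0.88 and −0.22 in mice 1 to 5 (−0.75 ± 0.65) and the sterol carrier Scp2, whose thiolase form shortens the bile acid side chain, −0.99, 0.17, −1.66, −1.20 and −0.40 (−0.82 ± 0.71). Both lay near 0 in mouse 2 and lowest in mouse 3. Slc27a5, which couples bile acids to coenzyme A, went the other way with 0.43, 0.25, 0.09, 0.56 and 0.21 (0.31 ± 0.19, interval 0.09 to 0.54) and was above 0 on 9 of 10 arrays. It was the only one of 12 bile acid genes that averaged above 0, against 7 lower at the unadjusted level. The bile acid receptor Nr1h4 averaged −0.32 ± 0.22.

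Amino acid and redox metabolism leaned below 0. Mat1a, the liver enzyme that makes S-adenosylmethionine, had −0.51, −0.36, −0.48, −0.77 and −0.48 in mice 1 to 5 (−0.52 ± 0.15, interval −0.73 to −0.32), all 10 arrays below 0. Arginase (Arg1), the last step of the urea cycle, had −0.68, −0.15, −1.07, −0.78 and −0.53 (−0.64 ± 0.34) and a second probe −0.60 ± 0.32. Glutamine synthetase (Glul), which is confined to hepatocytes around the central vein, averaged −0.60 ± 0.39, and a second probe −0.16 ± 0.13. Of the antioxidant genes, glutathione peroxidase (Gpx1) had −0.53 ± 0.29, peroxiredoxin (Prdx1) −0.73 ± 0.51, catalase (Cat) −0.52 ± 0.47 and Gclc, the first step to glutathione, −0.62 ± 0.44. At the unadjusted level, 10 of 22 methionine and glutathione genes (median −0.22, and −0.33 without mouse 2), 11 of 36 urea and amino acid genes and 8 of 18 antioxidant genes were lower. Fatty acid oxidation had 8 of 24 lower, with the medium-chain dehydrogenase Acadm at −0.65 ± 0.34 and a second probe of it at 0.19 ± 0.21. Fatty acid and triglyceride synthesis had 5 of 25 lower and 0 higher, and its median depended on mouse 2, at −0.03 with it and −0.21 without it.

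ER folding genes had a median of −0.27, with 23 of 26 below 0 and 11 lower at the unadjusted level. Hspa5 (BiP), the main chaperone of the ER lumen, had −0.28, −1.50, −1.21 and −0.80 in mice 2, 3, 4 and 5 (−0.95 ± 0.53, n = 4, interval −1.48 to −0.42). Hsp90b1 (GRP94) had −1.12, −0.13, −1.21, −1.07 and −0.32 in mice 1 to 5 (−0.77 ± 0.51). Calreticulin (Calr), a lectin chaperone, had −0.70, −0.16, −0.87, −0.83 and −0.39 (−0.59 ± 0.31), and its membrane-bound partner calnexin (Canx) had −0.60 ± 0.36, −0.47 ± 0.55 and 0.08 ± 0.10 by its 3 probes. Mouse 2 was the highest of the mice in these chaperones, and mice 3 and 4 were the lowest in Hspa5 and Calr. Pdia4, a disulfide isomerase, had −0.44, −0.09, −0.43, −0.46 and −0.40 (−0.36 ± 0.15). Serp1, which protects nascent proteins at the translocon, had −0.90, −0.35, −1.08, −0.95 and −0.44 (−0.74 ± 0.33), below 0 on all 10 arrays. Manf, a secreted ER stress protein of the study's list, had −1.37, 0.08, −0.91, −0.81 and −0.68 by one probe, and 1 of its 4 probes lay above 0 (0.09 ± 0.34, n = 4). Ppib, a prolyl isomerase, gave opposite signs by its probes, −0.81 ± 0.49 (n = 4) and 0.25 ± 0.10.

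The promoters of the chaperones Hspa5, Hsp90b1 and Calr are shown because ER folding genes lay below 0 together and several share a known element. A script searched the RefSeq promoters of GRCm38.p6 (300 bases around each gene's start) on both strands for the ER stress element, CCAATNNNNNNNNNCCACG, and for a sterol regulatory element core, TCACCCCAC (the first of these includes the CCAAT box, which many promoters hold on its own). The ER stress element stood in 39 of 32851 promoters (0.119%) and in 7 of the 22 ER folding genes with a promoter in the table, namely Calr, Canx, Hspa5, Hsp90b1, Ero1b, Dnajc3 and Creld2. The median log2 ratio was −0.59 over these 7 genes and −0.11 over the other 15, as a description. Ero1b, Canx, Dnajc3 and Creld2, whose promoters are not printed below, had gene means of −0.71, −0.33, −0.42 and −0.18. The sterol core stood in 181 promoters (0.551%) and in 1 of 10 cholesterol synthesis genes, Hmgcs1. A match is a description and not a shown site, and its absence says only that the letters are not in the window. The sequences below run in the direction of transcription with the match in capitals, and Hsp90b1 holds a second match on its other strand. Positions are chr2:34771840-34772139 for Hspa5 (plus strand), chr10:86705395-86705694 for Hsp90b1 (minus), chr8:84846882-84847181 for Calr (minus) and chr13:119690101-119690400 for Hmgcs1 (plus).
Hspa5: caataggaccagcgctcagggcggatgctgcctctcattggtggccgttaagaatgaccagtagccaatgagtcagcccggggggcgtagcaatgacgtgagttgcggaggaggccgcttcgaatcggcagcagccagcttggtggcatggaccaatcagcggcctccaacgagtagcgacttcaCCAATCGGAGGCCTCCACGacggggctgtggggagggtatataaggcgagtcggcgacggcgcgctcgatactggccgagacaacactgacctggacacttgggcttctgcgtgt
Hsp90b1: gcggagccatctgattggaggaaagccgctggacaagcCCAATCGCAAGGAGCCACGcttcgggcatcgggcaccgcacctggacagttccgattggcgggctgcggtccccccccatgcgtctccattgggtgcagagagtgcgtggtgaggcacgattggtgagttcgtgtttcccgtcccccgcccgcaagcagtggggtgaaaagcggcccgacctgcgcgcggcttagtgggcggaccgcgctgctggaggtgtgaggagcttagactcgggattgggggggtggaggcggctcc
Calr: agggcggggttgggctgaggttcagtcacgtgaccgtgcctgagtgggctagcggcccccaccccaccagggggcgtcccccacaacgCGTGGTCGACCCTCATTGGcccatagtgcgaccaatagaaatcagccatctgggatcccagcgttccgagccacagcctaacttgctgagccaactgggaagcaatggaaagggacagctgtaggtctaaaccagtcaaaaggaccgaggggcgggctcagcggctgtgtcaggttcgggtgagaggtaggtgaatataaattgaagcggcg
Hmgcs1: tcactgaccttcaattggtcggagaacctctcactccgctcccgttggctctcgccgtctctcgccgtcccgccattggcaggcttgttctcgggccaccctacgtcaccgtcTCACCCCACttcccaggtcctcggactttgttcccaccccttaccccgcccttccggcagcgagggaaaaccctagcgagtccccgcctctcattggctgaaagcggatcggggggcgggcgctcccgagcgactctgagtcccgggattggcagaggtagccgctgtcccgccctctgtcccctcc

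Components of the respiratory chain leaned below 0 as a broad group. Of 68 tested genes, 61 averaged below 0 and 30 were lower and 0 higher at the unadjusted level, with a median of −0.22. The mouse medians were −0.30, 0.03, −0.36, −0.40 and −0.19 in mice 1 to 5. Ndufc2, a subunit of complex I, had −0.22, −0.47, −0.43, −0.28 and −0.43 in mice 1 to 5 (−0.37 ± 0.11, interval −0.55 to −0.18) and −0.39 ± 0.27 in thymus. The ATP synthase subunit Atp5l averaged −0.52 ± 0.34, and Atp5h had −0.44 ± 0.27 by the lowest of its 3 probes and 0.05 by the highest. Vdac1, the main channel of the outer mitochondrial membrane, had −0.45, −0.34, −0.55, −0.47 and −0.46 (−0.45 ± 0.07, interval −0.62 to −0.28), below 0 on all 10 arrays. The ribosomal proteins of mitochondria did not follow, with a median of −0.03 over 59 genes, 2 lower and 1 higher, fewer than the background share. Mrpl51 had −0.48 ± 0.18 and Mrps7 0.24, 0.14, 0.20, 0.51 and 0.76 (0.37 ± 0.26, above 0 on all 10 arrays).

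Cytosolic ribosomal proteins, by contrast, had 57 of 60 genes below 0 and a median of −0.23, with 20 lower and 1 higher at the unadjusted level. The mouse medians were −0.26, 0.06, −0.37, −0.42 and −0.09 in mice 1 to 5, so mouse 2 alone lay above 0. Rps28 and Rpl5 averaged −0.51 ± 0.30 and −0.43 ± 0.27. Such genes have many processed pseudogenes, and single probes are uncertain. Proteasome subunits had a median of −0.14 with 11 of 40 lower. Psmd6, of the regulatory cap, had −0.60, −0.21, −0.59, −0.53 and −0.72 (−0.53 ± 0.19, interval −0.76 to −0.30), all 10 arrays below 0. Ubiquitin ligases and cullins, the class of Siah1a and Cul2, had a median of 0.01 over 102 genes (0.02 without mouse 2) with 7 lower and 4 higher, which is under the background in both directions.

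Transcription factors of hepatocytes had a median of −0.14, with 7 of 20 lower. Nr5a2 (LRH-1), a regulator of bile acid genes, averaged −0.41 ± 0.22 and lay below 0 on 10 of 10 arrays. Cebpa had −0.41 ± 0.19, Rxra −0.38 ± 0.25 and Hnf4a −0.37 ± 0.23 with −0.17 ± 0.24 by another probe. The growth factor receptor Egfr, counted with the growth hormone-dependent genes, had −0.33, −0.61, −0.75, −1.06 and −0.69 in mice 1 to 5 (−0.69 ± 0.26, interval −0.96 to −0.42) and the autophagy protein Gabarapl2 −0.77, −0.49, −1.11, −0.73 and −0.44 (−0.71 ± 0.27, interval −0.98 to −0.43), both below 0 on all 10 arrays. A second Gabarapl2 probe averaged 0.20, above 0, and the 3 other Egfr probes averaged −0.33 ± 0.21, −0.20 ± 0.31 and 0.23 ± 0.74. Ola1, an ATPase, had −0.44, −0.57, −0.98, −0.55 and −0.72 (−0.65 ± 0.21). Ndrg1, a gene of stress and differentiation, had −0.53, −0.73, −0.64, −0.23 and −0.79 (−0.58 ± 0.22). The cytokine Il15 had −0.26, −0.37, −0.61, −0.63 and −0.57 (−0.49 ± 0.17), all 10 arrays below 0, by a probe of the last block of probe numbers.

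Among the genes above 0, Vangl2, a planar cell polarity protein, had 0.38, 0.43, 0.38, 0.45 and 0.29 in mice 1 to 5 (0.39 ± 0.06, interval 0.22 to 0.55). Esm1, a proteoglycan of endothelium, had 0.32, 0.16, 0.47, 0.66 and 0.44 (0.41 ± 0.19). Septin6, of the septin cytoskeleton, had 0.94, 0.38, 0.33, 0.57 and 0.35 (0.51 ± 0.26). These 3 were above 0 on all 10 arrays, and mouse 2 lay within the range of the other mice for Vangl2 and Septin6. A second Septin6 probe averaged 0.05. Mmp9, a matrix protease of neutrophils and macrophages, had the smallest spread, 0.39, 0.30, 0.32, 0.33 and 0.25 (0.32 ± 0.05), but was above 0 on 8 of 10 arrays and gave −0.29 ± 0.38 by a second probe. Elmo1, a regulator of engulfment and cell migration, had the widest, 1.18, 0.72, 0.27, 1.54 and 0.69 (0.88 ± 0.49), by the highest of 5 probes that went down to 0.11. Tespa1, a protein of thymocyte receptor signaling, had 0.45, 0.22, 0.86, 0.51 and 1.07 (0.62 ± 0.34) in liver and −0.44 ± 0.17 in thymus, while a second probe averaged −0.06 in liver. Nr1d1, a repressor of the clock, had 0.28, 0.30, 1.01, 0.21 and 0.29 (0.42 ± 0.33), above 0 on every array, with mouse 3 far above the rest through 1 array (0.07 in Cy3, 1.95 in Cy5), and its second probe averaged 0.07 ± 0.13. Clock genes as a list had a median of −0.03 (−0.01 without mouse 2).

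Cyclins, CDKs and replication genes had a median of 0.08 over 53 genes, with 1 lower and 3 higher at the unadjusted level. Their median was above 0 on each of the 10 arrays, with 0.03, 0.05, 0.09, 0.17 and 0.05 in mice 1 to 5. Over all named genes the median was 0.01, with −0.03 to 0.05 in single mice, and over all tested probes it was 0.034. Cdk2 belongs to this list and lay at the other end of it, so its ratio did not stand for the list.

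Markers of hepatocytes were low together with the metabolic genes that also belong to these cells. Some markers, such as Apoa2, Arg1 and Cyp3a11, are also members of lists described above, so the lists are not independent of each other. All 12 measured hepatocyte markers averaged below 0, with a median of −0.32 and mouse medians of −0.43, 0.00, −0.91, −0.61 and −0.14. Medians were 0.03 for 9 cholangiocyte markers, −0.03 for 15 of stellate cells, 0.08 for 13 of Kupffer cells, −0.06 for 13 of endothelium, 0.00 for 9 of T cells and 0.04 for 8 of B cells. Those of neutrophils (10), erythroid cells (7), adipocytes (11), skeletal muscle (13) and exocrine pancreas (8) were −0.01, −0.19, 0.09, −0.01 and −0.03. In these 11 lists the mouse medians lay between −0.26 and 0.24, and without mouse 2 the list medians lay between −0.20 and 0.11. The part of cell composition in the results was not tested.

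The pattern over mice was shared by the low lists. Of 48 lists, 18 had a median of −0.20 or lower, a limit chosen after the values were seen. Mice 1, 3, 4 and 5 had medians below 0 in all 18, and mouse 2 in 9, between −0.209 and 0.064. Mouse 2 was the highest of the mice in 17 of the 18, mouse 3 or 4 the lowest in 13 and mouse 1 the lowest in 5. Without mouse 2, the median of cytochromes P450 was −0.46 against −0.38 with it, and that of acute phase proteins −0.46 against −0.36.

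Both dye orientations were examined for each mouse. On arrays with heterozygous RNA in Cy3 the P450 medians were −0.84, −0.24, −0.75, −0.63 and −0.43 in mice 1 to 5, and on those with it in Cy5 they were −0.28, 0.01, −0.45, −0.42 and −0.07. Acute phase proteins had −0.64, −0.24, −0.65, −0.78 and −0.24 in Cy3 and −0.29, 0.18, −0.50, −0.44 and 0.01 in Cy5. In 15 of the 18 low lists the mean over Cy3 arrays lay below that over Cy5 arrays. Mice 1, 3 and 4 were below 0 in all 18 lists in both orientations. Mouse 5 was below 0 in 18 lists in Cy3 and 12 in Cy5, and mouse 2 in 15 and 2, so in mouse 2 the low lists rested mainly on 1 orientation. The ratios were read as already turned for the dye, and with the sign of the Cy3 arrays turned instead, 31 of 48 list medians and 53 of 75 named values changed sign.

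**Figure D3:**
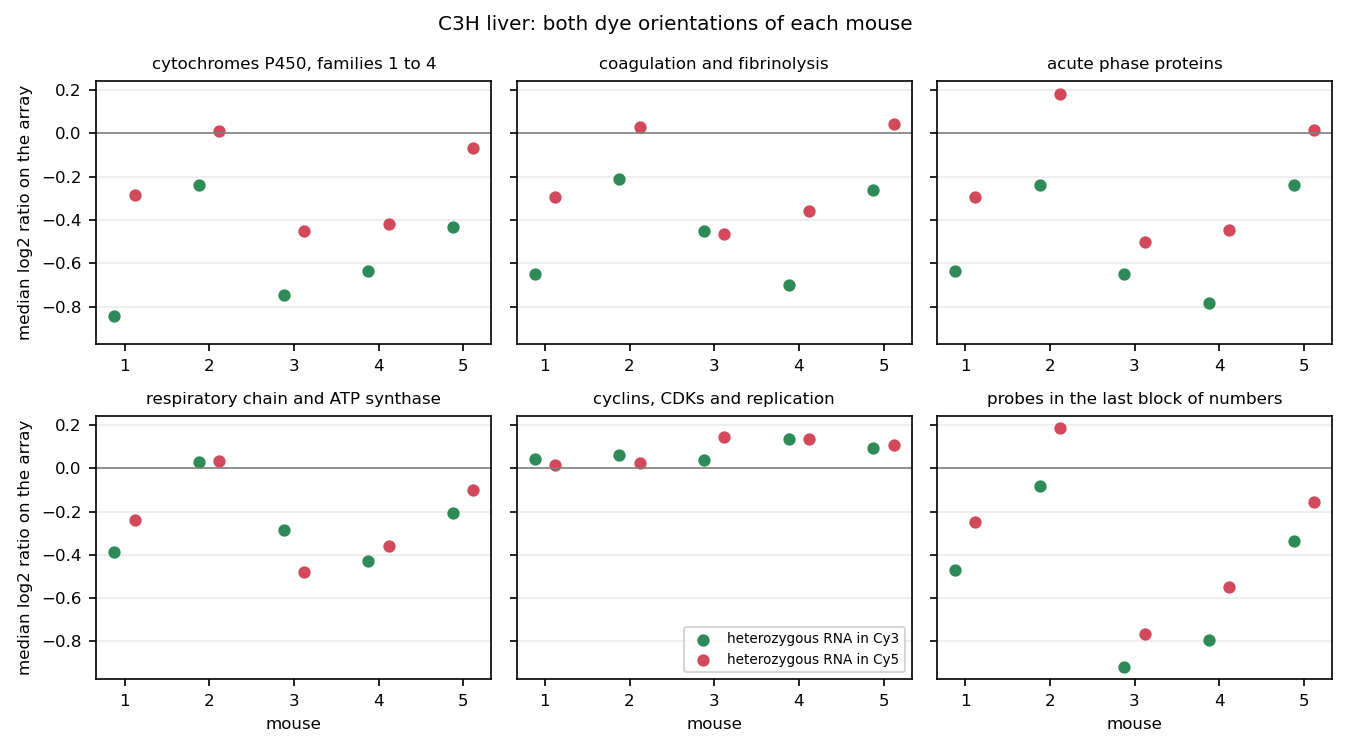
Median log2 ratio of 5 gene lists and of the probes in the last block of probe numbers on each of the 10 C3H liver arrays, by mouse and by the dye of the heterozygous RNA (green Cy3, red Cy5). Mice 1, 3 and 4 lie below 0 in both orientations in all panels but the cyclins, while mouse 2 lies between −0.24 and 0.184.

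A technical feature of the arrays touches several of the named genes. The 516 tested probes numbered above 20237 had a median ratio of −0.43, against 0.04 for all other probes, and 86.6% of them lay below 0, against 42.3%. At the unadjusted level 44.4% of them were lower, against 6.71%, and 1.55% were higher, against 6.23%. Their medians in mice 1 to 5 were −0.35, 0.05, −0.85, −0.68 and −0.24, the same order of mice as in the hepatocyte markers. For the 149 genes with probes both inside and outside this block, the median was −0.40 inside and 0.00 outside, and 121 of them were lower inside. In thymus and brain of the same mice the block had medians of −0.19 and −0.12, against 0.004 and 0.014 elsewhere. What these probes share was not tested. The block holds the tested probes of Siah1a, Cul2, F3, Ncstn, Il15, Lim2 and Map3k12, 1 probe each of Dll1, Cdk2 and Hey2 and 2 of Hey1. With the block moved to the median of the other probes in each mouse, Siah1a had −0.42, Cul2 −0.40, Cdk2 −0.54, Dll1 −0.43, Lim2 −0.30 and Map3k12 −0.26. The hepatocyte, P450, respiratory chain and cytosolic ribosome lists hold no probe of the block. Medians also varied along the probe numbers before the block, from −0.144 to 0.160 over bins, and this variation was not adjusted.

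**Figure D4:**
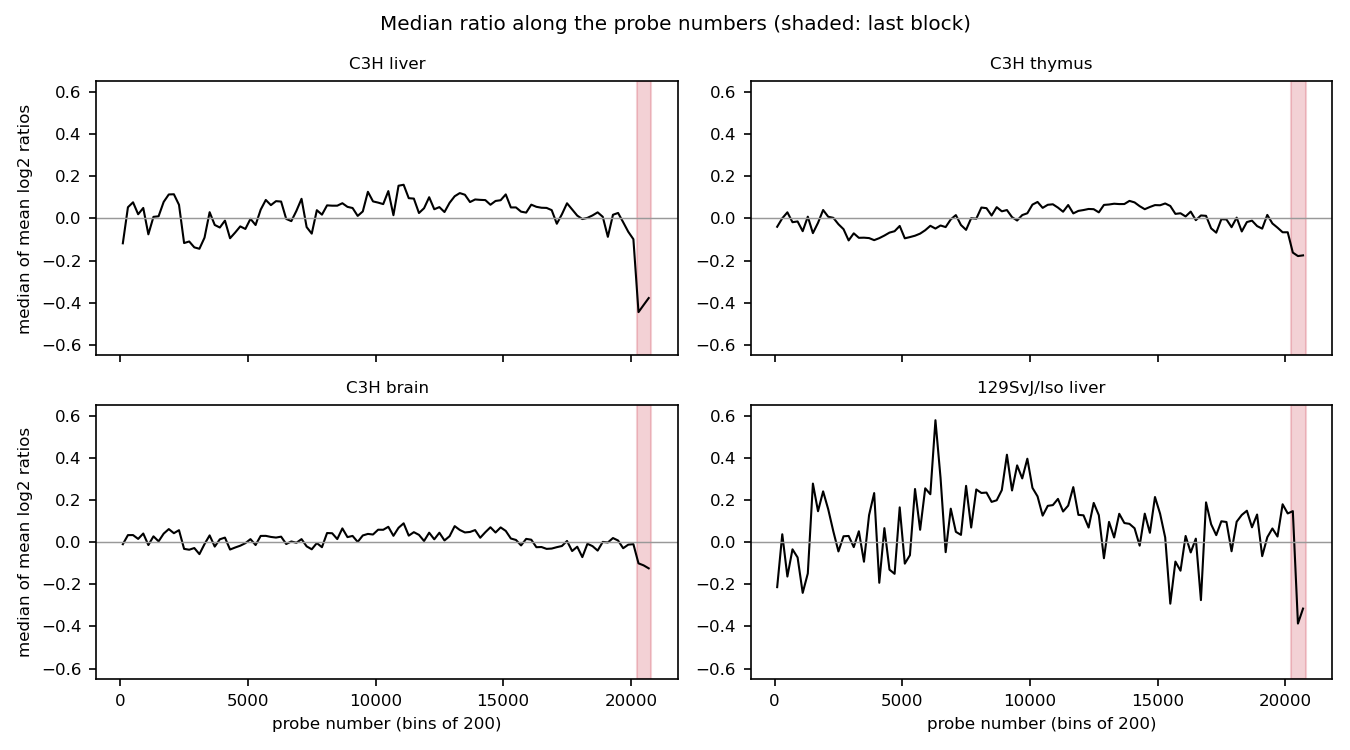
Median of the mean log2 ratios in bins of consecutive probe numbers in C3H liver, C3H thymus, C3H brain and 129SvJ/Iso liver, with the last block of numbers shaded. In C3H liver the bins before the block lie between −0.144 and 0.160, and those in the block fall below that range.

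Liver ratios were set against those of thymus and brain from the same mice to ask whether the organs differed. By limma, 0 of 19790 probes (0.0%) differed between liver and thymus at an adjusted p under 0.05 (smallest 0.07), with 664 lower (3.36%) and 922 higher (4.66%) in liver at the unadjusted level. Between liver and brain 0 of 19924 (0.0%) differed (smallest adjusted p 0.146), with 989 lower (4.96%) and 871 higher (4.37%). The 18 low lists had medians of −0.219 to 0.087 in thymus and −0.052 to 0.088 in brain. These lists were chosen for their low medians in C3H liver, so this is a description and no test of a difference between organs.

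Single genes with the strongest contrast to thymus included Adk, adenosine kinase, with −0.50 ± 0.21 in liver and 0.51 ± 0.05 in thymus, and Cyp2c70, with −0.81 ± 0.44 and 0.25 ± 0.20. Higher in liver than in thymus were Iqgap1, a scaffold of the actin cortex (0.47 ± 0.34 in liver, −0.48 ± 0.19 in thymus), and Tespa1, as above. The Iqgap1 probe is the highest of 4 in liver, which began at −0.50 with 2 below 0. Against brain, Hmgcs1 had −0.80 ± 0.30 in liver and 0.18 ± 0.12 in brain, Apof −0.62 ± 0.28 and 0.47 ± 0.29, and Ola1 −0.65 ± 0.21 and 0.08 ± 0.12. The methionine sulfoxide reductase Msra had 1.0 ± 0.27 (n = 4) in liver and −0.44 ± 0.48 in brain, while its other probe averaged −0.33 in liver. The adjusted p of these differences was 0.104 to 0.358 (limma), so none passes.

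The same allele was examined in liver of the strain 129SvJ/Iso. On average 3.06% of the values of an array were not used in C3H liver, against 23.5% in 129SvJ/Iso liver. In 15 of the 18 low lists the 129SvJ/Iso median lay below that of C3H liver over the same genes, and in the other 3 above. Over genes tested in both, C3H and 129SvJ/Iso medians were −0.41 and −0.69 for acute phase proteins and −0.40 and −0.63 for coagulation. They were −0.43 and −0.56 for cytochromes P450, −0.22 and −0.65 for the respiratory chain and −0.37 and −0.94 for hepatocyte markers. The list medians therefore lay on the same side of 0 in both strains, which share neither mice nor wild-type RNA. Since the 18 lists were chosen for low medians in C3H liver, this is a description and no independent test. Lists outside the 18 lay on both sides of 0 in 129SvJ/Iso liver, for example −0.53 for proteasome subunits and 0.46 for Kupffer cell markers. The median over all named genes there was 0.01. Differences of medians between the strains were not tested.

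**Figure D5:**
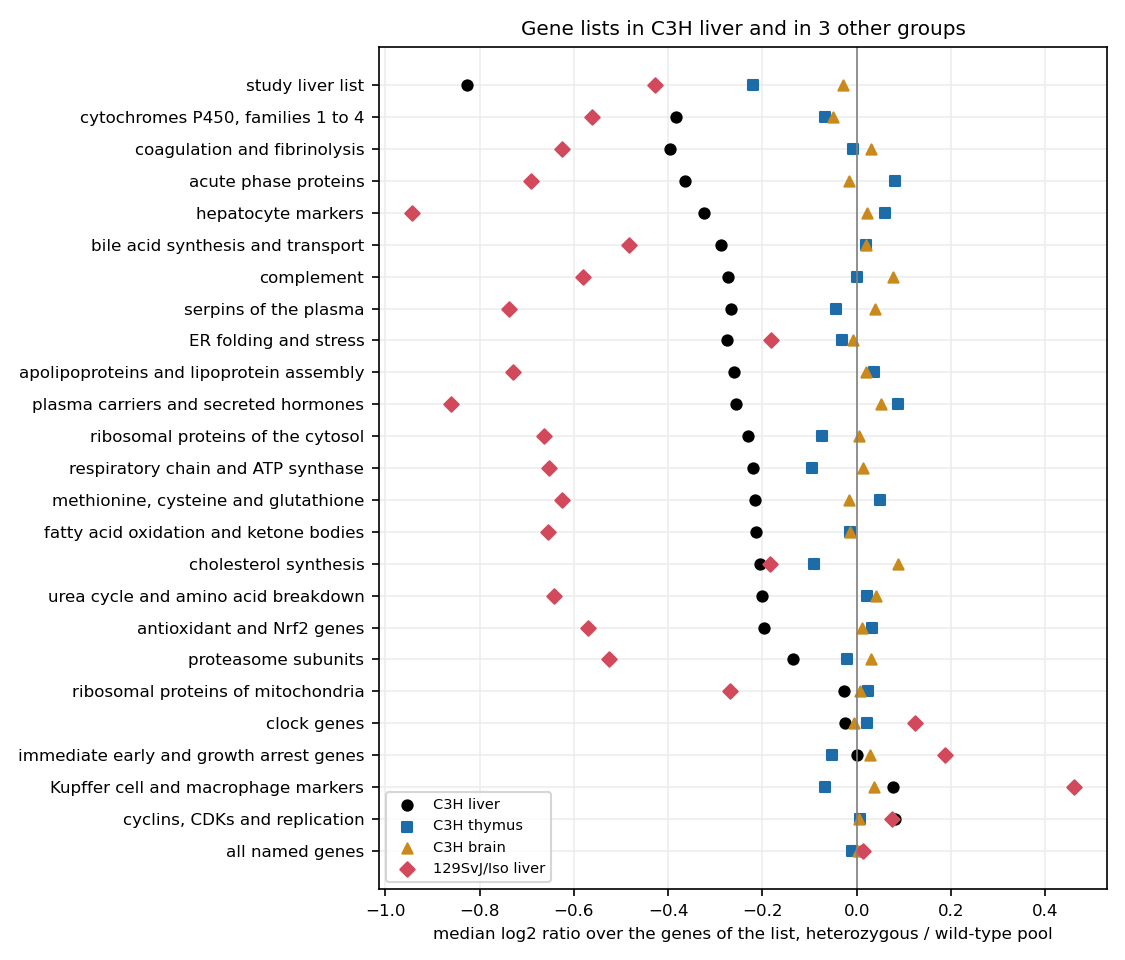
Median log2 ratio of each gene list in C3H liver (black circles), C3H thymus (blue squares), C3H brain (orange triangles) and 129SvJ/Iso liver (red diamonds). Hepatocyte and metabolic lists lie below 0 in both livers and near 0 in thymus and brain.

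By limma, 38 of 13201 probes (0.288%) differed between C3H and 129SvJ/Iso liver at an adjusted p under 0.05, 36 lower and 2 higher in C3H. At the unadjusted level 1484 (11.2%) were lower and 1067 (8.08%) higher in C3H. All 38 had an adjusted p between 0.0418 and 0.0498, and 0 passed when the strains were given their own array weights. In most of them the ratio was near 0 in C3H liver and far above it in 129SvJ/Iso liver, over 4 or 5 C3H mice and 3 or 4 129SvJ/Iso mice. Pcbd1, which recycles the cofactor of phenylalanine hydroxylation, averaged −0.38 ± 0.29 in C3H liver and 1.78 ± 0.29 in 129SvJ/Iso liver. Lfng, a glycosyltransferase that tunes Notch receptors, averaged −0.17 ± 0.17 and 1.62 ± 0.29 in C3H and 129SvJ/Iso liver. Cyp3a13 averaged −0.75 ± 0.35 and 1.05 ± 0.25, and the proteasome subunit Psma6 −0.36 ± 0.22 and 1.31 ± 0.52, in the same order of strains. The asparagine synthetase Asns had 0.06 ± 0.19 in C3H liver and −1.36 ± 0.40 in 129SvJ/Iso liver. Leaving out a mouse changed the count widely, from 0 without any 1 of the C3H mice to 253 without mouse 3 of 129SvJ/Iso.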

How the data were processed

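The authors deposited log2 ratios from 2-colour cDNA arrays, made with GenePix Pro and the TM4 suite per the study's methods. Their normalization is not stated there or in the labels. They were read as turned for the dye, since the sign of each array's constant extreme value followed the dye on all 86 arrays, and as heterozygous over wild type, from genes the study gives as lower. The extreme values (21 to 98 spots per C3H liver array) were set to missing.

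Both dye orientations of a mouse were averaged, and a probe needed both in at least 3 mice. Ratios were tested against 0 with limma 3.58.1 in R 4.3.3 (lmFit, eBayes, two-sided, Benjamini-Hochberg over all probes, threshold 0.05). The wild-type mice were pooled, so their spread is not in the test. Of 20794 probes, 12771 have 1 gene symbol. Organ and strain differences were limma contrasts without a block. The labels give the same animals for all C3H organs, and deviations of the same mouse correlated at −0.13 to 0.04 between liver and thymus and −0.14 to 0.04 between liver and brain.

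Named were Dll1, the study's list, the 15 probes of smallest p in each direction, up to 6 genes per list with its defining members, the largest means with all 10 arrays on 1 side, and the extremes of each difference. Members, lists and rules were chosen with earlier results of these data known. The fit was tested on simulated data. Alternatives covered centring, scaling, missing values, dye, direction, blocks, probes per gene and each mouse left out.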

Additional observations from a re-analysis of the deposited data

Results flagged for a closer look

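A single mouse stood far from the other 4 in 3 of 122 checks of a gene or list. For independent, normally spread values about 1 in 20 would do so. The genes were partly chosen on the same data and the lists share members, so that rate need not apply here. Insig2 was −1.45 in mouse 2, against −0.679 to −0.436 in the other mice, and rests on 1 array (−2.62 in Cy3, −0.28 in Cy5). Pdia4 was −0.091 in mouse 2, against −0.456 to −0.398 in the others. Nr1d1, the clock repressor, was 1.01 in mouse 3, against 0.208 to 0.306 in the others, and rests on 1 array (0.07 in Cy3, 1.95 in Cy5).

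A difference between C3H and 129SvJ/Iso liver passed the limma test for 38 probes, of which 27 have a gene name, with adjusted p between 0.0418 and 0.0498. The difference, C3H minus 129SvJ/Iso, was negative for 25 of the named probes. It was Pgp (−1.464), Pcbd1 (−2.158), Gtf2b (−2.035), Fam234a (−1.494), Galns (−1.577), Timm17a (−1.618), Clec3b (−2.551) and Lfng (−1.792). It was Zfp286 (−2.031), Paqr6 (−2.413), Pafah1b2 (−1.716), Pkd2l1 (−1.835), Jade2 (−1.439), Mt2 (−1.416), Obsl1 (−1.515) and Cdca8 (−1.878). It was also Gabarapl1 (−2.615), Rprd1b (−1.691), Zcchc14 (−1.873), Cyp3a13 (−1.801), Glul (−1.487), Ckm (−1.441), Psma6 (−1.674), Pctp (−2.362) and Ubfd1 (−2.114). It was positive for Trpm5 (1.552) and Asns (1.415). For Glul this is the probe with a mean of −0.16 ± 0.13 in C3H liver. With array weights per strain the adjusted p of these 38 probes was 0.129 to 0.309, so 0 passed, and 129SvJ/Iso liver had 10.6% of its values at small whole-number ratios. The part of weak spots in these differences was not tested.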

How the results depend on the processing

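No probe of C3H liver passed the adjusted threshold under any of the 19 alternatives, and the smallest adjusted p (limma) ranged from 0.0834, with all arrays fitted and mouse as a random block, to 0.618 without mouse 4. The count of probes lower at an unadjusted p under 0.05, 1558 of 20335 (7.66%), was 801 to 1973 with 1 mouse left out. The count higher, 1243 (6.11%), was 2025 with the random block and 509 to 1990 with 1 mouse left out. With probes averaged per gene, 819 of 8888 genes (9.21%) were lower and 418 (4.7%) higher, a count over fewer units. Of the mice left out in turn, mouse 2 gave the greatest counts (1973 lower, 1990 higher without it) and the lower count was smallest without mouse 4. Among these alternatives, 3 (spots of a few intensity units dropped, the last block of probe numbers dropped or moved) were chosen after seeing the data.

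For the differences between organs of the same animals, mouse as a replicate block gave 0 probes against thymus (smallest adjusted p 0.555) and 0 against brain (0.646), as without the block, and it changed no call. Without mouse 2, 1 probe differed between liver and brain, and 0 to 1 over all mice left out. The 38 probes that differed between C3H and 129SvJ/Iso liver became 0 with array weights per strain, 13 with array medians subtracted and 0 to 253 with 1 mouse left out, namely 0 without any 1 C3H mouse and 2, 79, 253 and 5 without mouse 1, 2, 3 or 5 of 129SvJ/Iso.

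The setting that changed most directions was the sign of the Cy3 arrays. Turning it would be right if the deposited ratios had not been turned for the dye. If they had been, as was assumed here, turning leaves the effect of the dye in the mean. Turning the Cy3 arrays changed the sign of 53 of 75 named values and of 31 of 48 list medians, and the turned list medians lay between −0.122 and 0.195. The cause was not tested. The turned means were Hmgcs1 0.004, Cyp2f2 0.125, Siah1a 0.39, Cul2 0.364, Cdk2 0.142, Manf 0.068, Dll1 0.213, Hey1 0.324, Hey2 0.302, Mbl2 0.246, Kng1 0.101, Fga 0.317, Vtn 0.073, Apof 0.049 and Apoh 0.127. They were Selenop 0.041, Igfbp4 0.077, F3 0.31, Cyp2a12 0.143, Fdps 0.136, Sqle 0.119, Insig2 0.104, Cyp7b1 0.043, Arg1 0.181, Mat1a 0.122, Gclc 0.074, Gpx1 0.269, Prdx1 0.068, Glul 0.018 and Mlxipl 0.074. They were also Dgat2 0.323, Calr 0.106, Pdia4 0.089, Serp1 0.096, Rps28 0.09, Psmd6 0.085, Mrpl51 0.305, Cebpa 0.227, Nr5a2 0.006, Hnf4a 0.177, Gabarapl2 0.072, Trp53inp2 0.452, Ola1 0.272, Ndrg1 0.301, Lim2 0.567 and Map3k12 0.077. Below 0 after turning, against above 0 before it (second Dll1 probe included), were Dll1 −0.141, Jag2 −0.156, Slc27a5 −0.034, Vangl2 −0.096, Septin6 −0.061, Tespa1 −0.098 and Junb −0.081. One other sign changed, that of the second Dll1 probe, which was −0.304 with both probes averaged. In all other alternatives the 75 named values kept their sign, and no named gene reached an adjusted p (limma) under 0.0834. Many of these values were named for a small p or for arrays on 1 side of 0 in the same data. Their kept sign is therefore no independent check. Of 912 list medians under the alternatives, 69 moved by more than the SD of the mouse medians, 32 of them by turning the Cy3 arrays.

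The precision is limited by 5 mice and by 1 pool of wild-type RNA, whose own spread is not in the tests. Spot intensities were not used here, and small whole-number ratios, which spots of a few intensity units give, made up 2.01% to 5.90% of the values of an array. The direction of the ratios, their normalization and their scale rest on the values themselves.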
